A study of Homo sapiens with 8 samples.

Results

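Described here are 9 genes of phosphoinositide 3-kinase (PI3K) signalling and its FOXO branch, PIK3CD, PIK3R1, PIK3IP1, PIK3AP1, IRS2, INPP5D, DAPP1, FOXO1 and FOXO3. They were chosen by name, as the rows of the expression table that carry these symbols, and are 9 of its 25066 genes. The cells were TMD8, an established human lymphoma line of the ABC (activated B cell) class of diffuse large B cell tumours, and all of them had been transduced with Cas9. One set carried a control guide RNA (sgCTRL; KLHL14(+/+) in the labels), the other a guide against KLHL14 (sgKLHL14; KLHL14(-/-) in the labels). For 24 h either set received the solvent DMSO or ibrutinib at 2 nM, a drug that binds and blocks Bruton tyrosine kinase (BTK), which gave 4 groups of 2 libraries. Whether the edited cells were a single clone, and whether the libraries within a group were separate cultures, is not given in the sources used here. The p-values therefore measure the spread between these libraries, which may be technical.

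In B cells the antigen receptor and its coreceptors recruit class I PI3K, whose catalytic subunit is held and guided by a regulatory subunit. The lipid it makes, phosphatidylinositol trisphosphate (PIP3), draws proteins with a PH domain to the membrane, among them BTK, the AKT kinases and the adaptor DAPP1, and phosphatases such as INPP5D remove it. Active AKT phosphorylates FOXO transcription factors, which then leave the nucleus, so that PI3K activity and FOXO-dependent transcription oppose each other. An mRNA level does not report the activity or location of these proteins.

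All values are log2 normalised read counts, on which a change of 1 is a doubling, and differences were tested with limma across all 12683 genes above a minimum level. A gene is called changed where its Benjamini-Hochberg adjusted p was under 0.05. Library totals ran from 12333876 to 23467110 reads. The mRNA of KLHL14 itself was no lower with the label sgKLHL14. It stood at 12.06 to 12.07 with sgCTRL and 12.19 to 12.33 with sgKLHL14 in DMSO, and in ibrutinib at 12.30 in both sgCTRL and 13.16 in both sgKLHL14 libraries. A Cas9 cut can leave the transcript in place, so these counts do not check the edit, and every direction between guides below is between libraries as labelled. All 8 of 8 B cell markers passed the level filter (MS4A1 was highest, at a mean of 15.58), and their summed level was 16.34 to 16.44 in DMSO and 16.85 to 16.90 in ibrutinib. Levels were summed before taking log2, so the highest gene weighs most. With ibrutinib 5 of these 8 were called higher with sgCTRL and 6 with sgKLHL14, and EBF1 was called lower with either guide. Over all tested genes 17.9% and 19.7% were called higher, and 16.9% and 19.3% lower, in the same order of guides. Of the T and NK cell markers 2 of 9 passed, and CD3D, CD3E and KLRD1 had no reads in any library. Their summed level was 5.96 to 6.21 in DMSO and 6.38 to 6.89 in ibrutinib. Of the myeloid markers 0 of 8 passed, with S100A8, S100A9, MPO and FCGR3A at no reads. Epithelial and fibroblast markers passed in 6 of 8 cases, led by CDH1 at a mean of 10.25, and their sum lay between 10.55 and 10.86 in all libraries. Of these 6, COL1A1 and DCN were called higher and KRT8 lower with ibrutinib with either guide, and CDH1 was called higher with sgKLHL14. The part of these shifts in the results below was not tested. In bulk RNA, fewer cells of a kind and less RNA per cell cannot be told apart.

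All 9 genes passed the level filter. Per kilobase of transcript, the mean log2 level over the 8 libraries was 10.84 for PIK3AP1, 10.64 for PIK3CD, 10.25 for INPP5D and 10.22 for DAPP1. PIK3R1 followed at 9.21 and FOXO1 at 7.85. The lowest were FOXO3 at 5.42, PIK3IP1 at 4.01 and IRS2 at 1.23 on the same scale. The scaling took 1 transcript length per gene, from 1440 bases for DAPP1 to 8138 for IRS2. Before it, DAPP1 had a mean of 10.75, below PIK3R1 at 12.02, so the place of DAPP1 above PIK3R1 rests on these lengths. PIK3AP1 and PIK3CD differed by less than PIK3AP1 varied between groups, and INPP5D and DAPP1 by less than DAPP1 did, so the order within these pairs is not fixed. DAPP1 group means, before scaling to length, ran from 10.23 to 11.31. That range exceeds its gaps to PIK3CD and PIK3AP1, so its place relative to them is not fixed either.

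With ibrutinib, the same 6 of the 9 genes rose with either guide and none fell: PIK3R1, PIK3AP1, INPP5D, DAPP1, FOXO1 and FOXO3. Over all tested genes 34.8% were called with sgCTRL (17.9% higher and 16.9% lower) and 38.9% with sgKLHL14 (19.7% and 19.3%), and 13.8% were called higher with both guides. DAPP1 about doubled, FOXO3 and FOXO1 rose by 1.67-fold and 1.45-fold with sgCTRL, and INPP5D, PIK3AP1 and PIK3R1 rose by 1.35-fold or less with that guide. The median change of the 9 genes was 0.31 with sgCTRL and 0.33 with sgKLHL14, against 0.018 and 0.011 over all tested genes. The 9 genes were chosen with earlier results of these data known, so neither the count nor the median tests them against all genes. PIK3CD, PIK3IP1 and IRS2 were not called. The means of both comparisons come from separate libraries. Their p-values are not independent, because the fit shares an estimate of the spread over all libraries.

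**Figure D1:**
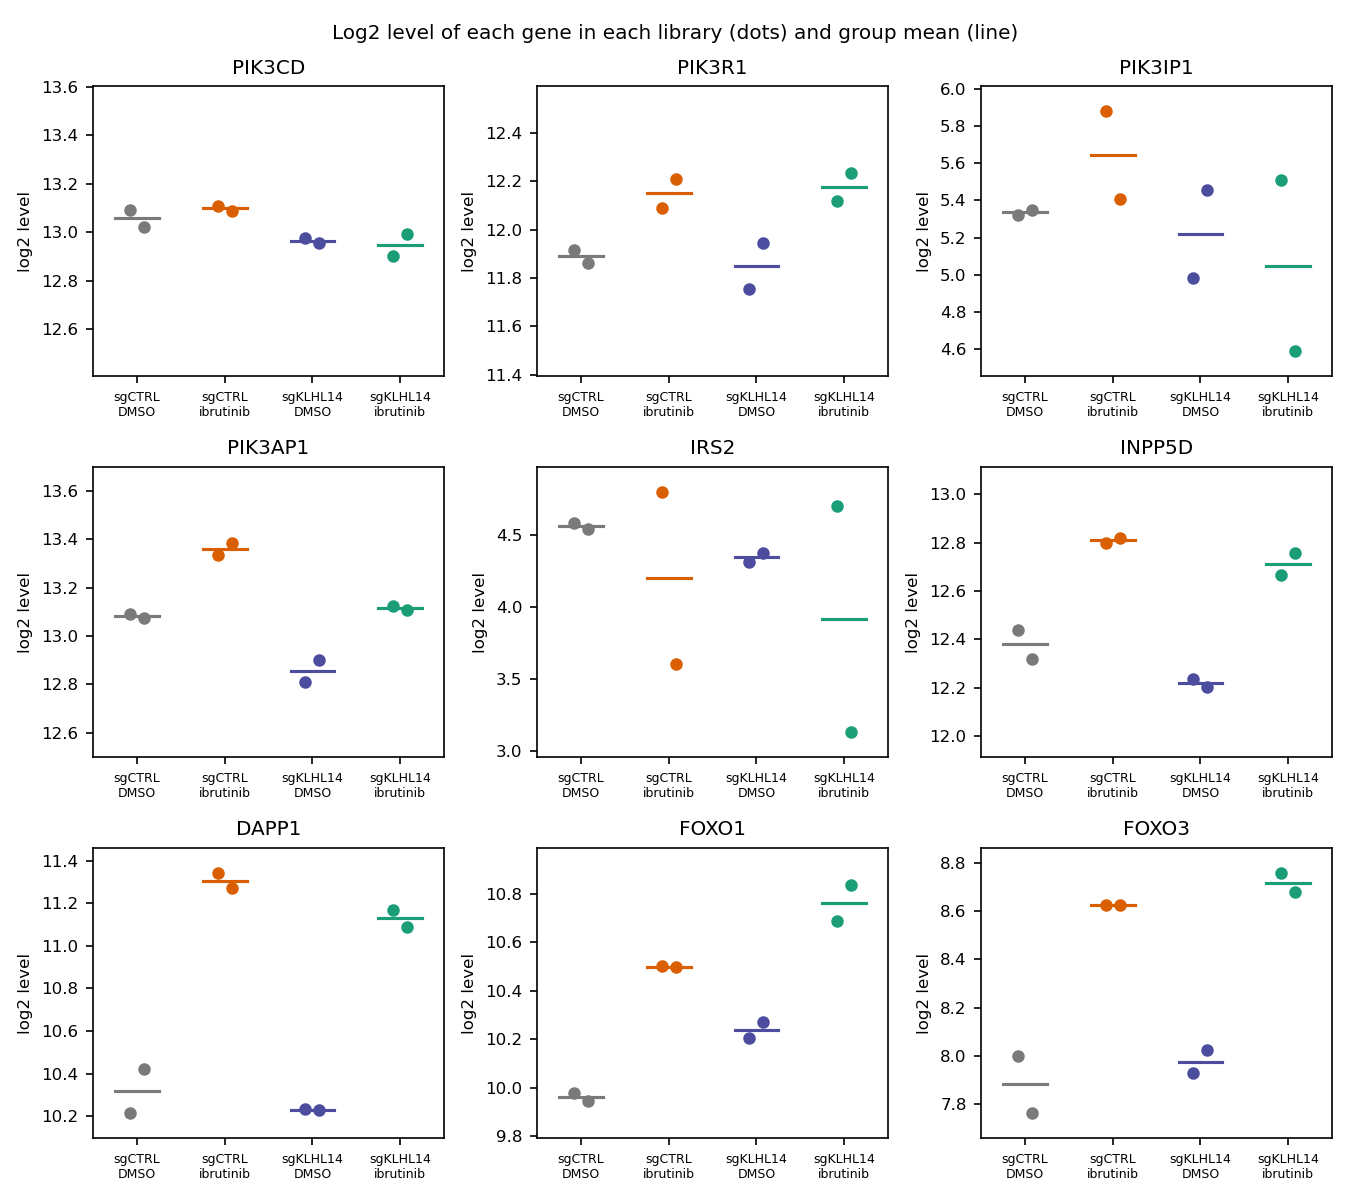
Log2 level (y axis) of the 9 genes in each of the 8 libraries (dots) by guide and treatment (x axis), with the group mean as a line; y axes differ between panels. In the DAPP1 panel all 4 ibrutinib libraries lie at 11.09 to 11.34, above all 4 DMSO libraries at 10.21 to 10.42. Within a guide, 36.6% (sgCTRL) and 34.6% (sgKLHL14) of all tested genes were higher with ibrutinib without overlap.

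PIK3CD encodes p110 delta, the catalytic subunit that predominates in leukocytes. Its levels with sgCTRL were 13.09 and 13.02 in DMSO and 13.11 and 13.09 in ibrutinib. With sgKLHL14 they were 12.97 and 12.96 in DMSO and 12.90 and 12.99 in ibrutinib. The groups with and without the drug overlapped for either guide, and the interval of the change was narrow. Ibrutinib changed PIK3CD by 0.04 with sgCTRL (95% confidence interval -0.081 to 0.16, limma adjusted p = 0.624) and -0.019 with sgKLHL14 (-0.14 to 0.10, adjusted p = 0.822). The gene, on chromosome 1, overlaps the antisense gene PIK3CD-AS1 (C1orf200 in the table), which had 16 to 45 reads per library, and CLSTN1 at a mean of 10.86. Whether counting used strand is not given, so reads of these genes may be shared.

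PIK3R1, on chromosome 5, encodes p85 alpha, the regulatory subunit that binds phosphotyrosine motifs and restrains the catalytic subunit until it docks. With sgCTRL its levels were 11.92 and 11.86 in DMSO against 12.09 and 12.21 in ibrutinib. With sgKLHL14 they were 11.75 and 11.95 against 12.12 and 12.23. Both ibrutinib libraries lay above both DMSO libraries with either guide, as in 36.6% of all tested genes with sgCTRL and 34.6% with sgKLHL14. The rise was 0.26 with sgCTRL (SE 0.071, limma adjusted p = 0.00722) and 0.33 with the other guide (adjusted p = 0.00107). Of the 6 calls this was the least stable. With sgCTRL it did not survive leaving out DMSO replicate 2 (adjusted p = 0.056) or ibrutinib replicate 2 (0.125) of that guide, nor a fit without the variance trend (0.0828) or the level filter (0.172). With sgKLHL14 it ended without the level filter (0.0943).

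PIK3IP1, on chromosome 22, encodes a membrane protein that inhibits the catalytic subunit and is known as a gene that FOXO factors activate. Reads were few: 20 and 35 in DMSO and 36 and 21 in ibrutinib with sgCTRL, and 27 and 36 in DMSO and 28 and 11 in ibrutinib with sgKLHL14. Levels in the same order were 5.32, 5.35, 5.88 and 5.41, then 4.98, 5.46, 5.51 and 4.59. The gap between the sgKLHL14 ibrutinib libraries was wider than any difference between group means. The change was 0.31 with sgCTRL (95% confidence interval -0.39 to 1.01, limma adjusted p = 0.501) and -0.17 with sgKLHL14 (-0.87 to 0.53, adjusted p = 0.717). Both intervals span 0, so the sign of a change within them was not resolved, and the part of depth in their width was not tested.

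PIK3AP1, on chromosome 10, encodes BCAP, the B cell adaptor that binds the regulatory subunit and recruits PI3K to the antigen receptor. With sgCTRL its levels were 13.09 and 13.08 in DMSO and 13.33 and 13.39 in ibrutinib. With sgKLHL14 they were 12.81 and 12.90 in DMSO and 13.12 and 13.11 in ibrutinib. Ibrutinib libraries were higher with either guide, and libraries labelled sgKLHL14 were lower in either treatment, without overlap. The first held for 36.6% of all tested genes with sgCTRL and 34.6% with sgKLHL14, the second for 20.2% in DMSO and 22.2% in ibrutinib. With the drug it rose by 0.28 in sgCTRL cells (SE 0.057, limma adjusted p = 0.000816) and 0.26 in those labelled sgKLHL14 (adjusted p = 0.00121).

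IRS2, on chromosome 13, encodes the docking protein that links insulin and cytokine receptors to PI3K. It was the scarcest of the 9, with 12 and 20 reads in DMSO and 17 and 6 in ibrutinib with sgCTRL, and 17 and 17 in DMSO and 16 and 4 in ibrutinib with sgKLHL14. Its levels were 4.59 and 4.54 in DMSO and 4.80 and 3.60 in ibrutinib with sgCTRL, then 4.32 and 4.38 in DMSO and 4.70 and 3.13 in ibrutinib with sgKLHL14. In either ibrutinib group replicate 1 was above and replicate 2 below the DMSO libraries. The changes of -0.36 (95% confidence interval -1.43 to 0.70, limma adjusted p = 0.615) and -0.43 (-1.50 to 0.64, adjusted p = 0.538) were not distinguishable from none.

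INPP5D encodes SHIP1, the phosphatase of haematopoietic cells that turns PIP3 into a bisphosphate. With sgCTRL its levels were 12.44 and 12.32 in DMSO and 12.80 and 12.82 in ibrutinib. With sgKLHL14 they were 12.24 and 12.20 in DMSO and 12.67 and 12.76 in ibrutinib. All 4 ibrutinib libraries lay above all 4 DMSO libraries. Within a guide, both ibrutinib libraries lay above both DMSO libraries in 36.6% of all tested genes with sgCTRL and 34.6% with sgKLHL14. The share over both guides at once was not computed. The rise was 0.43 with sgCTRL (SE 0.061, limma adjusted p = 1.78e-05) and 0.49 with sgKLHL14 (adjusted p = 2.89e-06).

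DAPP1 encodes BAM32, an adaptor whose PH domain binds PIP3 and that acts downstream of the B cell receptor. With sgCTRL its levels were 10.21 and 10.42 in DMSO and 11.34 and 11.27 in ibrutinib. With sgKLHL14 they were 10.23 and 10.23 in DMSO and 11.17 and 11.09 in ibrutinib. It had the largest change of the 9 genes with either guide. The rise was 0.99 with sgCTRL (SE 0.075, 95% confidence interval 0.83 to 1.15, limma adjusted p = 5.33e-09) and 0.90 with sgKLHL14 (0.74 to 1.06, adjusted p = 1.88e-08).

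The promoters of INPP5D and DAPP1 are shown because these 2 genes rose with the drug and were the ones whose upstream bases held a searched motif. In the 250 bases before the start site (RefSeq, GRCh38.p14; the expression table was built on hg19) both strands were searched for the FOXO core GTAAACA, the ETS core GAGGAAGT and the ETS-IRF composite element (GGAA, any 2 bases, then GAAA). The ETS and composite motifs share the letters GGAA and could overlap. All 9 genes had a promoter entry. INPP5D, at chr2:233060092-233060341 on the plus strand, held the ETS core on the plus strand and the composite element on the minus strand. DAPP1, at chr4:99816577-99816826 on the plus strand, held the composite element on the minus strand. Matches are in capitals:
INPP5D: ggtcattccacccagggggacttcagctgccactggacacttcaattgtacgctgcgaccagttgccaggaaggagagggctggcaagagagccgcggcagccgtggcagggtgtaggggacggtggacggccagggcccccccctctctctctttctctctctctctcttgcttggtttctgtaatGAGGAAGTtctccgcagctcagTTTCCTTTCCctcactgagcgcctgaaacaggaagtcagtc
DAPP1: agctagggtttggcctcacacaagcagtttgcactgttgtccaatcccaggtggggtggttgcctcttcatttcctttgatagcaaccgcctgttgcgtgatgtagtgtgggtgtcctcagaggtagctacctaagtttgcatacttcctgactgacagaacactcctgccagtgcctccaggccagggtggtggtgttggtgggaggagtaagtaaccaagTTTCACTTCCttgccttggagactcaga
Counted back from the start site, the matches lie at -63 to -56 (ETS core) and -41 to -32 (composite) in INPP5D and at -28 to -19 in DAPP1. Of 27305 promoters of the same length, 2.98% held the FOXO core, 2.13% the ETS core and 2.435% the composite element. The FOXO core was in 0 of the 9 windows, PIK3IP1 and IRS2 included. A match or its absence describes these letters only.

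FOXO1, on chromosome 13, is the FOXO factor that B cell development depends on. With sgCTRL its levels were 9.98 and 9.94 in DMSO and 10.50 and 10.50 in ibrutinib. With sgKLHL14 they were 10.21 and 10.27 in DMSO and 10.69 and 10.84 in ibrutinib. Ibrutinib libraries were higher with either guide and libraries labelled sgKLHL14 higher in either treatment, without overlap, as happened for 36.6% and 34.6% of all tested genes with the drug and for 21.5% in either treatment between guides. Ibrutinib raised FOXO1 by 0.54 in sgCTRL cells (SE 0.074, limma adjusted p = 1.21e-05) and by 0.52 in those labelled sgKLHL14 (adjusted p = 1.5e-05).

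FOXO3, on chromosome 6, encodes a widely expressed FOXO factor tied to cell-cycle arrest and apoptosis genes. Its reads were 128 and 187 in DMSO and 241 and 195 in ibrutinib with sgCTRL, and 208 and 213 in DMSO and 266 and 187 in ibrutinib with sgKLHL14. Scaled to depth, the levels were 8.00 and 7.76 in DMSO and 8.62 and 8.62 in ibrutinib with sgCTRL, then 7.93 and 8.02 in DMSO and 8.76 and 8.68 in ibrutinib with sgKLHL14. All 4 ibrutinib libraries lay above all 4 DMSO libraries. Within a guide such a separation held for 36.6% of all tested genes with sgCTRL and 34.6% with sgKLHL14. The rise was 0.74 with either guide (SE 0.12, limma adjusted p = 7.46e-05 with sgCTRL and 6.09e-05 with sgKLHL14). Its near-identical copy FOXO3B had 0 to 3 reads in DMSO and 2 to 7 in ibrutinib, so reads shared with it, which counting may drop, could not be assessed.

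**Figure D2:**
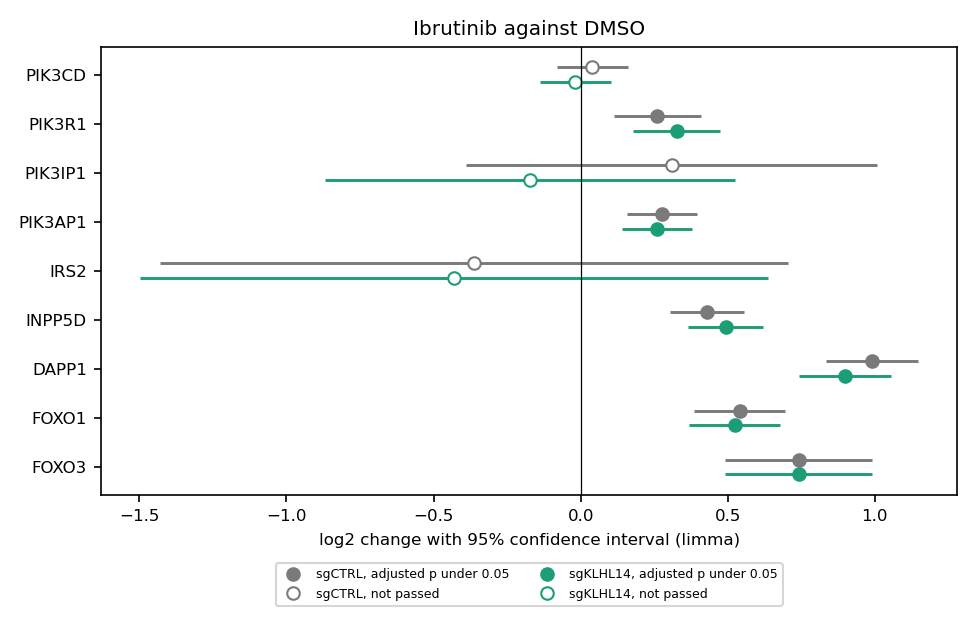
Log2 change with ibrutinib against DMSO (x axis) with its 95% confidence interval from limma, for the 9 genes (y axis) with sgCTRL and sgKLHL14; filled points passed the adjusted p threshold. DAPP1 lies farthest right at 0.99 and 0.90, and the intervals of PIK3IP1 and IRS2 span 0 and are the widest.

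The calls of DAPP1, FOXO1, FOXO3, INPP5D and PIK3AP1 with ibrutinib held with either guide in every alternative run, including each library left out in turn. The largest adjusted p (limma) among them was 0.0294, for PIK3AP1 with sgCTRL.

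Between guides, PIK3AP1 was the 1 gene of the 9 that was called, and it was lower in the libraries labelled sgKLHL14 in DMSO and in ibrutinib. These comparisons use the same 8 libraries as those of ibrutinib. Over all tested genes 1.62% were called in DMSO (0.852% lower and 0.773% higher) and 2.35% in ibrutinib (0.781% and 1.57%). PIK3AP1 fell by 0.23 in DMSO (SE 0.057, limma adjusted p = 0.0496) and by 0.24 in ibrutinib (adjusted p = 0.0234). FOXO1 was higher without overlap in either treatment but did not pass, with differences of 0.28 in DMSO (limma adjusted p = 0.065) and 0.26 in ibrutinib (adjusted p = 0.0744). Groups did not overlap in 21.5% of all tested genes, in the higher direction, in DMSO and likewise in 21.5% in ibrutinib. With the guide difference averaged over both treatments, a contrast added after the data were seen, PIK3AP1 was lower by -0.24 (SE 0.040, limma adjusted p = 0.000948) and FOXO1 higher by 0.27 (SE 0.052, adjusted p = 0.00307). That contrast called 5.50% of all tested genes, and the other 7 genes did not pass it.

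**Figure D3:**
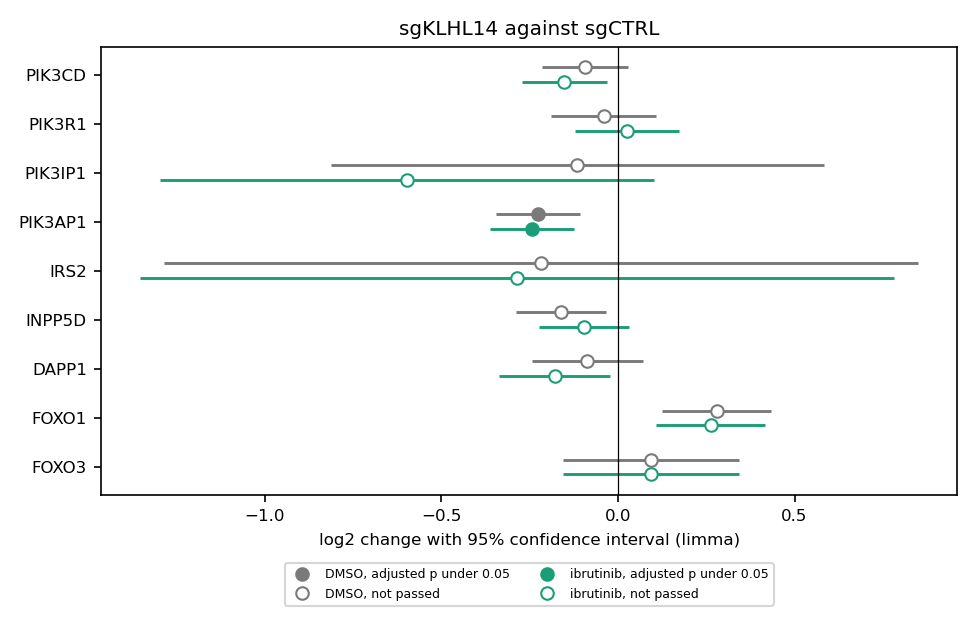
Log2 difference of libraries labelled sgKLHL14 from sgCTRL (x axis) with its 95% confidence interval from limma, for the 9 genes (y axis) in DMSO and in ibrutinib; filled points passed the adjusted p threshold. PIK3AP1 is filled at -0.23 and -0.24, and FOXO1 is open at 0.28 and 0.26.

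The call of PIK3AP1 was near the threshold. In DMSO it ended in 10 alternatives (adjusted p 0.0555 to 0.369, limma): without sgCTRL DMSO replicate 1 (0.277) or 2 (0.118), without sgKLHL14 DMSO replicate 1 (0.369), without any 1 of the 4 ibrutinib libraries (0.0555 to 0.114), with only the groups compared in the fit (0.106), and under either of the settings with no trend or no level filter. In ibrutinib it ended in 6 (0.0996 to 0.413): without sgCTRL ibrutinib replicate 1 (0.15) or 2 (0.413), without sgKLHL14 ibrutinib replicate 1 (0.0996) or 2 (0.12), and without the filter or the trend. Differences of the remaining 7 genes between guides ran, in DMSO, from -0.22 for IRS2 (limma adjusted p = 0.895) to 0.092 for FOXO3 (adjusted p = 0.792). In ibrutinib they ran from -0.60 for PIK3IP1 (adjusted p = 0.50) to 0.092 for FOXO3 (adjusted p = 0.833). PIK3CD was lower without overlap in either treatment, by -0.093 (95% confidence interval -0.21 to 0.028) and -0.15 (-0.27 to -0.031), and did not pass (adjusted p = 0.51 and 0.222). INPP5D also lay lower without overlap, by -0.16 (-0.29 to -0.033) and -0.096 (-0.22 to 0.031), and did not pass (adjusted p = 0.23 and 0.572). In the lower direction 20.2% of all tested genes did not overlap in DMSO and 22.2% in ibrutinib.

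The difference between the ibrutinib responses of the guides was called in 0 of the 9 genes by limma, in 0.0237% of all tested genes (3 genes), while 721 genes had an unadjusted p under 0.05. The 9 differences ran from -0.48 for PIK3IP1 (95% confidence interval -1.47 to 0.51) to 0.066 for PIK3R1 (-0.14 to 0.28), with adjusted p from 0.960 to 1. For FOXO1 the interval was -0.24 to 0.20, for DAPP1 -0.31 to 0.13 and for FOXO3 -0.35 to 0.35. Smaller differences in response were not detectable with 2 libraries a group.

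The other genes of the pathway were taken from 7 lists by role, chosen with earlier results of these data known. Over all tested genes, ibrutinib raised 17.9% and lowered 16.9% with sgCTRL, and raised 19.7% and lowered 19.3% with sgKLHL14. Counts below are to be read against these shares. Of 10 other PI3K subunits, 5 rose with ibrutinib and 2 fell with sgCTRL (median change 0.098), and 5 rose and 1 fell with sgKLHL14 (median 0.22). PIK3CG, the gamma catalytic subunit, rose by 0.99 and 1.05 (limma adjusted p = 6.03e-08 and 2.9e-08, sgCTRL first here and below). PIK3CA, the alpha catalytic subunit, rose by 0.47 and 0.46 (adjusted p = 0.000893 and 0.000951), calls that ended without the level filter (0.0756 and 0.0721). PIK3R2, the second class I regulatory subunit, changed in the opposite direction to PIK3R1, by -0.39 and -0.53 (adjusted p = 0.000354 and 1.07e-05). PIK3CB, the beta catalytic subunit, fell with sgCTRL (-0.39, adjusted p = 0.00132, and 0.0549 without the level filter) and was at -0.11 with sgKLHL14 (adjusted p = 0.31). The count of subunits that rose with sgCTRL was 2 without sgCTRL ibrutinib replicate 1 and 3 without any 1 of the other 3 sgCTRL libraries.

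Among 12 other adaptors and coreceptors, 5 rose and 1 fell with sgCTRL (median 0.093), and 6 rose and 1 fell with sgKLHL14 (median 0.29). CBLB, a ubiquitin ligase that restrains antigen receptor signals, rose by 0.90 and 1.09 (limma adjusted p = 1.42e-07 and 1e-08). The docking proteins GAB3 and GAB2 had changes of opposite sign. GAB3 rose by 0.93 and 1.31 (adjusted p = 0.000707 and 1.68e-05), and GAB2 changed by -0.57 and -0.62 (adjusted p = 9.33e-05 and 3.55e-05), though the GAB2 calls ended without the level filter (0.0869 and 0.0663). CD81, a tetraspanin of the B cell coreceptor complex, rose by 0.61 and 0.45 (adjusted p = 1.08e-06 and 3.35e-05).

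Of 16 other phosphoinositide phosphatases, 4 rose and 4 fell with sgCTRL (median -0.004) and 4 rose and 3 fell with sgKLHL14 (median -0.013). INPPL1, the SHIP2 phosphatase, rose by 0.28 and 0.21 (limma adjusted p = 0.000929 and 0.0078), and its call with sgKLHL14 ended without sgKLHL14 ibrutinib replicate 2 (0.0829). INPP4A, which acts on the bisphosphate, rose by 0.36 with either guide (adjusted p = 0.00102 and 0.000787). INPP5K rose by 0.41 and 0.33 (adjusted p = 0.00153 and 0.00785), and its sgKLHL14 call ended without sgKLHL14 DMSO replicate 2 (0.0621) or the level filter (0.0713). The 4 that fell with sgCTRL were 1 when sgCTRL DMSO replicate 2 was left out and 0 when ibrutinib replicate 1 of that guide was.

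PIP3 effectors, AKT kinases and related genes, not all of which bind PIP3, numbered 28 besides DAPP1. They are called PIP3 effectors below for short. With sgCTRL 12 rose and 3 fell (median 0.10), and with sgKLHL14 12 rose and 5 fell (median 0.13). Those 5 were 3 without sgKLHL14 DMSO replicate 1 or ibrutinib replicate 2. CYTH4, a PIP3-binding exchange factor for ARF GTPases, rose by 1.26 and 1.35 (limma adjusted p = 8.51e-10 and 3.64e-10). PLEKHA2, a PH domain protein of the TAPP family, rose by 0.86 and 0.87 (adjusted p = 1.53e-09 and 1.26e-09). DOCK8, an exchange factor for CDC42, rose by 0.55 and 0.51 (adjusted p = 2.87e-06 and 7.25e-06). SGK1, a kinase related to AKT, went the other way by -1.20 and -0.96 (adjusted p = 1.06e-09 and 2.38e-08). BTK, the drug's target and itself a PIP3 effector, rose by 0.17 in sgCTRL cells (adjusted p = 0.0284; 0.0756 to 0.227 without sgCTRL DMSO replicate 2, either sgCTRL ibrutinib library, the filter or the trend) and by 0.28 in those labelled sgKLHL14 (0.000584).

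Of 20 genes of mTOR and its TSC brake, 6 rose and 4 fell with either guide (medians -0.034 and 0.0015). These are 30% and 20%, against 17.9% and 16.9% of all tested genes with sgCTRL and 19.7% and 19.3% with sgKLHL14. The count that rose with sgCTRL was 3 without sgCTRL ibrutinib replicate 2. TSC1 rose by 0.36 and 0.57 (limma adjusted p = 0.000714 and 4.04e-06; 0.0608 with sgCTRL without the level filter) and TSC2 by 0.36 and 0.39 (adjusted p = 0.000563 and 0.000191), the subunits of the complex that holds mTOR in check. SESN2, a stress-induced inhibitor of mTOR, changed by -1.88 and -1.75 (adjusted p = 3.62e-09 and 9.75e-09). EIF4EBP1, a translation repressor that mTOR inactivates, changed by -1.09 and -1.38 (adjusted p = 1.11e-07 and 4.64e-09).

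**Figure D4:**
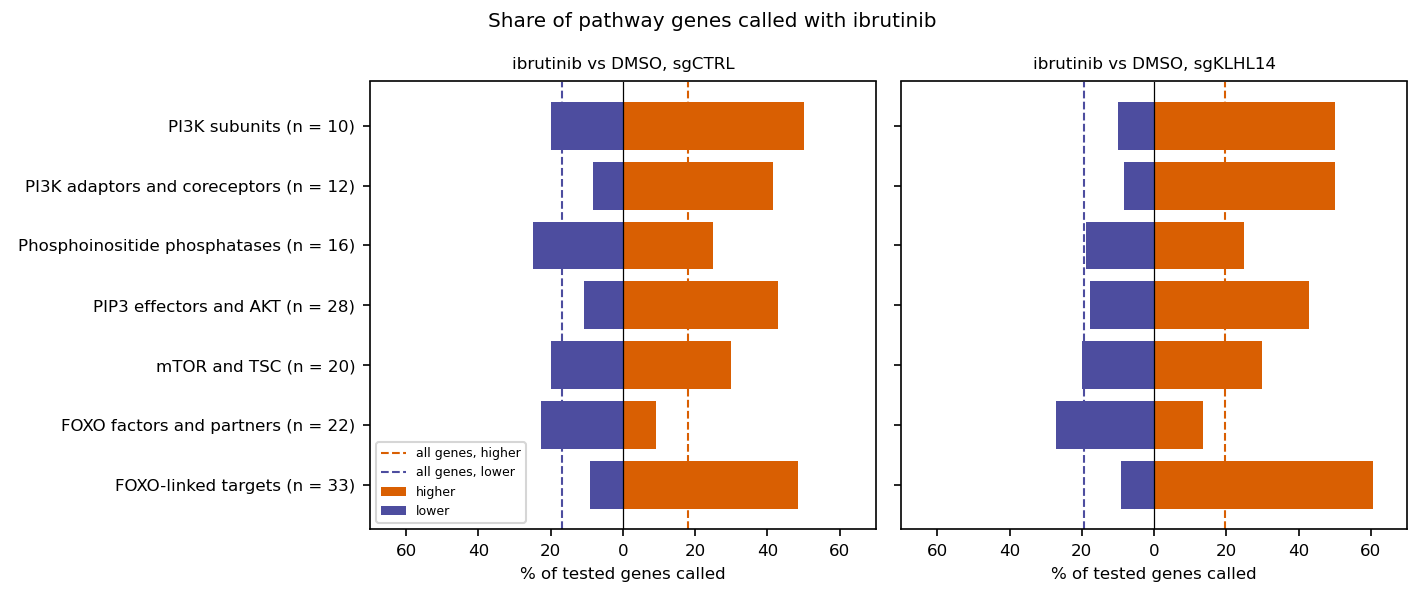
Share of tested genes of each pathway list (the 9 genes left out) called higher (right) or lower (left) with ibrutinib, in percent, with sgCTRL and with sgKLHL14; dashed lines mark the share over all 12683 genes. FOXO-linked targets reach 48.5% higher with sgCTRL and 60.6% with sgKLHL14, and FOXO factors and partners 9.09% and 13.6%.

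Among 22 other FOXO factors, modifiers and partners, 2 rose and 5 fell with sgCTRL (median 0.043), and 3 rose and 6 fell with sgKLHL14 (median 0.067). These counts shift with single libraries, and with sgCTRL the genes that rose numbered 1 to 4 and those that fell 1 to 5 when 1 library was left out. Without sgCTRL ibrutinib replicate 2, 1 rose and 1 fell. Without sgCTRL ibrutinib replicate 1, 1 rose and 2 fell. Without sgCTRL DMSO replicate 1 or 2, 3 or 2 fell, and without either sgKLHL14 DMSO library 4 rose. With sgKLHL14, 5 rose without sgKLHL14 DMSO replicate 2 or ibrutinib replicate 1. TRIB3, a pseudokinase that binds AKT, changed by -1.08 and -1.07 (limma adjusted p = 2.2e-09 and 2.32e-09). SFN, a 14-3-3 protein of the family that holds phosphorylated FOXO in the cytoplasm, rose by 0.64 and 0.35 (adjusted p = 6.41e-07 and 0.000445). Another 14-3-3 gene, YWHAQ, changed by -0.27 and -0.40 (adjusted p = 0.00402 and 9.99e-05), and XPO1, the nuclear exporter, by -0.22 and -0.28 (adjusted p = 0.00797 and 0.000975). Their sgCTRL calls ended without sgCTRL ibrutinib replicate 2 (adjusted p = 0.0574 for YWHAQ and 0.0884 for XPO1), and that of XPO1 also without sgCTRL DMSO replicate 2 (0.093) or sgCTRL ibrutinib replicate 1 (0.0573). Both also ended without the level filter (0.136 and 0.0846) or the variance trend (0.0662 and 0.0628).

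FOXO-linked targets, apart from PIK3IP1 and IRS2, counted 33 tested genes. With sgCTRL 16 rose and 3 fell (median 0.23), and with sgKLHL14 20 rose and 3 fell (median 0.39). The list mixes genes of cell migration, arrest, apoptosis and autophagy, and FOXO factors are not their only regulators. CXCR4, a chemokine receptor, rose by 0.70 and 0.73 (limma adjusted p = 1.15e-07 and 6.12e-08). CCR7, which guides cells to lymph nodes, rose by 0.88 and 0.70 (adjusted p = 1.75e-07 and 3.12e-06). BTG1, an antiproliferative gene, rose by 0.72 and 0.69 (adjusted p = 1.37e-07 and 2.64e-07), and BCL2L11, the apoptosis activator BIM, by 0.53 and 0.70 (adjusted p = 7.29e-07 and 1.38e-08). Of the genes that fell, GABARAPL1, an autophagy gene, changed by -1.23 and -1.15 (adjusted p = 0.000119 and 0.000191) and SOD2, a mitochondrial antioxidant enzyme, by -0.41 and -0.36 (adjusted p = 0.00138 and 0.00346), both named after their values were seen.

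**Figure D5:**
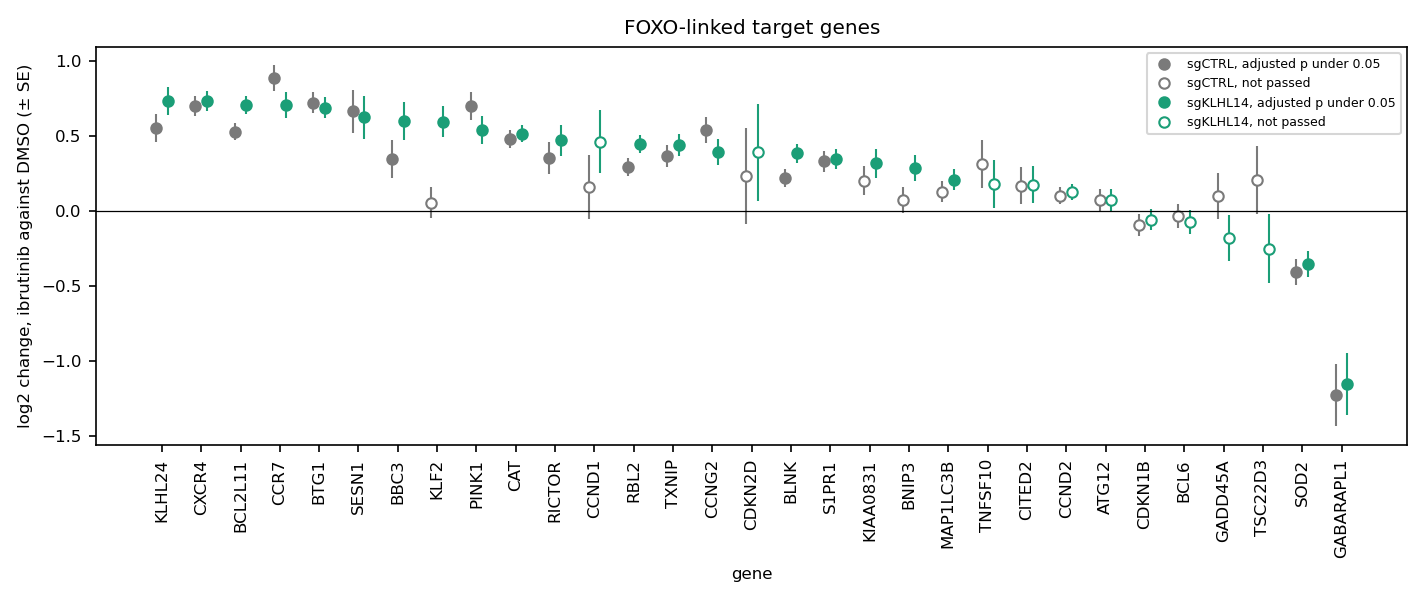
Log2 change with ibrutinib against DMSO (y axis, bars ± SE from limma) for 31 of the 33 tested FOXO-linked targets (x axis) with sgCTRL and sgKLHL14; filled points passed the adjusted p threshold. CXCR4, CCR7 and BTG1 lie at 0.69 to 0.88 with either guide, and GABARAPL1 lies lowest at -1.23 and -1.15.

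Between guides, calls in DMSO numbered 0 of 10 PI3K subunits, 3 of 12 adaptors, 0 of 16 phosphatases, 1 of 28 PIP3 effectors, 0 of 20 mTOR genes, 2 of 22 FOXO partners and 4 of 33 FOXO-linked targets, against 1.62% of all tested genes. In ibrutinib they numbered 1, 2, 0, 1, 0, 1 and 5 in that order, against 2.35%. The difference in response was called in 0 list genes. CXCR4 was higher in libraries labelled sgKLHL14, at 11.90 and 11.90 against 11.32 and 11.46 in DMSO and at 12.71 and 12.55 against 12.13 and 12.06 in ibrutinib. The differences were 0.51 and 0.54 (limma adjusted p = 0.00019 and 6.09e-05), and they passed without any 1 library but not without the level filter (0.17 and 0.132) or the variance trend (0.122 and 0.0575). The complement receptor gene CR2 was higher in either treatment (0.76 in DMSO and 1.14 in ibrutinib, adjusted p = 0.0398 and 0.000826). In DMSO, SFN (0.31) and PRMT1 (0.26), an arginine methyltransferase, were also higher, and CBLB (-0.36), CYTH4 (-0.39), BCL2L11 (-0.30) and KLHL24 (-0.39) lower. In ibrutinib, PIK3C2B (0.47), a class II PI3K, CYTH1 (0.29), TRIB3 (0.30) and BNIP3 (0.34) were also higher, and CCNG2 (-0.43), a cyclin linked to arrest, lower.

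Most of these calls between guides depended on single libraries. Without the level filter, 0 of the genes named kept the call in DMSO (adjusted p 0.161 to 0.51, limma) or in ibrutinib (0.0865 for CR2 to 0.215). Without the variance trend 0 kept it in DMSO (0.0812 to 0.304) and in ibrutinib CR2 alone did (0.0575 to 0.174 for the others). Reads thinned to equal depth also ended the DMSO calls of CBLB, CR2, PRMT1 and KLHL24 (0.0544 to 0.0886) and the BNIP3 call in ibrutinib (0.0668). Quantile scaling ended CBLB and KLHL24 (0.0624 and 0.0604), voom TRIB3 and BNIP3 (0.128 and 0.0594), and fitting only the groups compared TRIB3 (0.0759). In DMSO, leaving out sgCTRL replicate 1 ended those of CBLB, CR2, CYTH4, SFN, PRMT1, BCL2L11 and KLHL24 (limma adjusted p 0.0501 to 0.401). Without sgCTRL DMSO replicate 2 the calls of CBLB, CR2, SFN, PRMT1, BCL2L11 and KLHL24 ended (0.0636 to 0.147). Without sgKLHL14 DMSO replicate 1 the same 6 ended (0.0876 to 0.558), and without its replicate 2 those of CR2 (0.0661) and CYTH4 (0.0728). In ibrutinib, CYTH1, TRIB3 and BNIP3 were lost without any 1 of the 4 libraries compared (0.0649 to 0.523). CCNG2 was lost without either sgCTRL library or sgKLHL14 replicate 2 (0.0891 to 0.114), and PIK3C2B without sgCTRL replicate 1 (0.18) or sgKLHL14 replicate 2 (0.0879). The call of CR2 in ibrutinib held without any 1 library, but not without the level filter. TRIB3 in ibrutinib also failed without either sgCTRL DMSO library (0.0588 and 0.0597). CBLB and KLHL24 in DMSO also failed without any 1 ibrutinib library (0.054 to 0.0708), as did PRMT1 without either sgCTRL ibrutinib library (0.0773 and 0.0778).

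The genes whose levels ran most like each of the 9 over the 8 libraries were found by the root mean square difference of centred log2 levels. For DAPP1 they were METTL7A (0.062) and EXT1 (0.063), for INPP5D MYO9B (0.036) and LRCH4 (0.044), and for FOXO1 DNM2 (0.050) and SEMA6C (0.056). FOXO3 ran most like PYCARD (0.066) and PDK2 (0.070), PIK3AP1 like ARHGEF7 (0.040) and PANK1 (0.045), and PIK3R1 like ZNF45 (0.025) and MAP9 (0.032). PIK3CD, which varied least, ran like LASP1 (0.028) and PREX1 (0.029). The distances were larger for the low genes, at 0.17 for PIK3IP1 with HOXA6 and SNORD88B and at 0.26 and 0.28 for IRS2 with SNORD79 and CHST7. All of these patterns share the same 8 libraries.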

How the data were processed

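RNA was sequenced from TMD8 cells in 4 groups of 2 libraries. The submitters used bcl2fastq, STAR, HTSeq and the build hg19, per the submitters' processing notes; their versions, the annotation and any strand setting were not given in the sources used here. The authors deposited log2 values of normalized read counts per gene, with a row of library totals that was left out. Within 6e-04 (log2) 100% of values were whole reads times a library factor, 1 read being worth 1.16 to 2.19. The table had 0 columns of other samples.

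Genes with a mean log2 of at least 4.03, or about 10 reads, were kept (12683). They held at least 99.9% of reads in each library, and 1 gene was at 0 reads in some library. Means of the 4 groups were fitted with limma 3.58.1 (limma-trend, R 4.3.3; 4 residual degrees of freedom), adjusted by Benjamini-Hochberg over all kept genes. Replicates differed by more than sampling noise (chi-square per degree of freedom 2.18 to 7.89). The fit was also run on simulated counts with a uniform added spread and fewer changed genes than were called with ibrutinib. That setting differs from these libraries, so it is no check of the calls.

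The 9 genes and all lists were chosen with earlier results of these data known. Named besides them are KLHL14, BTK, per list up to 4 genes with the smallest p for ibrutinib with sgCTRL and 2 with sgKLHL14, those called between guides, and the 2 nearest genes of each. Some genes that the rule names are counted in their lists but are not reported here by name. Table symbols were matched to current ones through RefSeq gene IDs. Transcript lengths came from GENCODE 29. Alternatives were other filters, priors, scalings, a pseudocount of 16, recovered or thinned reads, a replicate block, only the groups compared, and each library left out.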

Additional observations from a re-analysis of the deposited data

Results flagged for a closer look

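The ibrutinib response of KLHL14, the gene the guide targets, differed between guides by a test of the difference itself. KLHL14 mRNA rose by 0.24 in sgCTRL cells (SE 0.060, limma adjusted p = 0.00421, and 0.0533 without the level filter) and by 0.90 in the libraries labelled sgKLHL14 (adjusted p = 9.32e-10). The difference was 0.66 on the log2 scale (SE 0.085, adjusted p = 0.00162), with both sgKLHL14 ibrutinib libraries above all others. It was not called without the variance trend (adjusted p = 0.521) or without the level filter (0.149), and held in the other alternatives run (0.00011 to 0.0207).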

How the results depend on the processing

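The numbers of genes called with ibrutinib (4411 with sgCTRL, 4939 with sgKLHL14), between guides (206 in DMSO, 298 in ibrutinib) and for the guides' difference in response (3) were recomputed with limma in each alternative. Without the level filter, with 25066 genes fitted, they were 2280 and 2838 with ibrutinib, 81 for the guides in DMSO and 19 in ibrutinib. The cause of these lower counts was not tested. In that setting, with sgCTRL, 10 FOXO-linked targets, 6 PIP3 effectors and 1 PI3K subunit rose with ibrutinib. Without the variance trend 25 and 96 were called between guides, and 0 for the difference in response (728 at an unadjusted p under 0.05). With 1 library left out the counts ran from 2907 to 4638 (ibrutinib, sgCTRL), 3566 to 4955 (sgKLHL14), 63 to 534 (guides, DMSO), 123 to 364 (guides, ibrutinib) and 2 to 4 (difference in response).

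The labels do not say whether the replicate numbers pair libraries across groups. Deviations of same-numbered libraries correlated at -0.061 to 0.11 over the kept genes, which cannot exclude a pairing. With the replicate number as a block 4765, 5268, 369, 432 and 5 genes were called in the order above, and FOXO1 passed between guides (adjusted p = 0.0315 in DMSO and 0.043 in ibrutinib). In ibrutinib it also passed with only the groups compared (0.047).

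For the 9 genes, 802 recomputed values kept their direction and side of the threshold, 21 lost and 5 gained a call, and 26 changed sign. Of the sign changes 0 touched a call. The tally includes the guide difference averaged over treatments, a different contrast added after the data were seen, entered under both guide comparisons. A gained call of FOXO1 (limma adjusted p = 0.00307) is thus counted in DMSO and again in ibrutinib from the same test. Thinned to equal depth, PIK3IP1 with ibrutinib and sgCTRL was -0.037, PIK3CD with sgKLHL14 0.000493 and the PIK3AP1 difference in response 0.000217. The IRS2 difference in response was 0.00253 with a pseudocount, and PIK3R1 between guides was -0.00725 averaged over treatments. With 1 library left out, signs changed for IRS2 (with sgCTRL -0.96 to 0.23, with sgKLHL14 -1.22 to 0.36, guides in ibrutinib -1.07 to 0.50, difference in response -0.85 to 0.72), PIK3IP1 (with sgKLHL14 -0.63 to 0.29, guides in DMSO -0.35 to 0.12), PIK3CD (with sgKLHL14 -0.064 to 0.026), PIK3R1 (guides in DMSO -0.14 to 0.056 and in ibrutinib -0.034 to 0.086, difference in response -0.0295 to 0.16), DAPP1 (guides in DMSO -0.19 to 0.017, difference in response -0.20 to 0.012), FOXO3 (guides in DMSO -0.027 to 0.21), the difference in response of PIK3AP1 (-0.061 to 0.027) and FOXO1 (-0.092 to 0.058), BTK (guides in DMSO -0.056 to 0.0065) and BNIP3 (ibrutinib, sgCTRL -0.018 to 0.16). IRS2 and PIK3IP1 fell below the stricter filter and have no value there. IRS2 had 4 to 20 reads per library and the widest intervals; the part of depth in them was not tested.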
